A study of Mus musculus with 12 samples.

Results

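The 46 genes described here drive cell division. Of them, 25 act mainly in mitosis, among them the mitotic cyclins, the aurora and polo kinases, kinesins and centromere proteins, and 21 act in S phase, when DNA is copied. The genes were taken from a fixed list of symbols, and each was read from its probe set on the array, the one with the highest mean where a gene had several. Probe sets carried 43 of the 46 symbols, 23 mitotic and 20 S phase, out of 19505 named genes in the series; each of the 43 had 1 probe set. Ccnb1, Foxm1 and Mcm7 were not analysed here.

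The series holds 12 tumors with 1 array each. The tumors grew in A/J mice, an inbred strain, from injected neuroblastoma cells, a tumor of the sympathetic nervous lineage whose line the labels do not name. The control group is 3 untreated tumors. The other groups are 3 tumors each labelled with 24, 48 or 72 h and high intensity focused ultrasound (HIFU), run in a mode that breaks tissue apart mechanically. The times were read as hours after HIFU, which the labels do not settle, and neither the age of the mice nor a sham treatment is labelled. They also do not say if the tumors within a group were from different mice, so the p-values speak only of the spread among these tumors, which can be partly technical. Values are log2 signals, differences are log2 differences with their limma standard error (SE), and arrays have no read depth, so the 3 arrays per group limit the precision. The RNA came from whole frozen tumor, in which fewer dividing cells and less RNA per dividing cell cannot be told apart.

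In a dividing cell, cyclin E with its kinase starts S phase, Cdc6 and Cdt1 load the MCM helicase onto origins, Cdc45 and the GINS complex switch that helicase on, and the polymerases with their clamp Pcna copy the DNA. Later, cyclins A and B with Cdk1 start mitosis, kinesins and aurora kinases build the spindle and align chromosomes, and the anaphase-promoting complex with Cdc20 ends it. The S phase genes are known as targets of E2F transcription factors. Mitotic genes are known for promoters with a CHR element, bound by the MuvB complex, often near CCAAT boxes bound by NF-Y.

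Where a promoter window was found, the genes held these elements in a pattern that split by phase. RefSeq promoter windows of assembly GRCm38.p6, from 250 bases before to 50 bases after the start, were found for 35 of the 43 genes (19 mitotic, and 16 S phase with 17 windows between them), and motifs were searched on both strands. A CHR match (TTTGAA or TTCGAA) stood in 16 of 19 mitotic windows (84.2%), in 3 of 17 S phase windows (17.6%) and in 19.2% of all 32851 windows. CHR and CCAAT together were found in 15 of 19 mitotic windows (78.9%), in 2 of 17 S phase windows (11.8%) and in 7.52% of all windows. An E2F match (the form TTCCCGC, the form TTGGCGC, the form TTGCCGC or the form TTCGCGC) showed the opposite split, with 2 of 19 mitotic windows (10.5%), 11 of 17 S phase windows (64.7%) and 9.57% of all windows. CCAAT alone was present in 84.2% of mitotic, 58.8% of S phase and 37.4% of all windows, and the E-box CACGTG in 5.26%, 11.8% and 7.15%. These are letter matches, not measured binding.

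The stretches shown, 4 mitotic and 3 S phase, come from genes whose signals are described one by one and were picked because they hold a match. Each runs 5′ to 3′ on the gene's strand from 170 bases before to 25 bases after the start, and capitals mark the E2F, CHR and CCAAT matches. Kif11 lies at chr19:37376212-37376406 (+), Cenpa at chr5:30666716-30666910 (+), Ube2c at chr2:164769759-164769953 (+), Mki67 at chr7:135716355-135716549 (-), Rfc4 at chr16:23127706-23127900 (-), Mcm5 at chr8:75109339-75109533 (+) and Cdc6 at chr11:98907981-98908175 (+).
Kif11: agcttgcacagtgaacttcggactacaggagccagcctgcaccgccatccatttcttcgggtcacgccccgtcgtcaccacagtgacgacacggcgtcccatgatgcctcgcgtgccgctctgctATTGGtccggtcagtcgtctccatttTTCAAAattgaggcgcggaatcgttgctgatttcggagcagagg
Cenpa: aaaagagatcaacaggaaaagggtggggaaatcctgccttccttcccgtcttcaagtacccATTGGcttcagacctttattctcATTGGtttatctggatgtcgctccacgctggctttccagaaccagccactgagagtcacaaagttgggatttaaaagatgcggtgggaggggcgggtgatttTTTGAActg
Ube2c: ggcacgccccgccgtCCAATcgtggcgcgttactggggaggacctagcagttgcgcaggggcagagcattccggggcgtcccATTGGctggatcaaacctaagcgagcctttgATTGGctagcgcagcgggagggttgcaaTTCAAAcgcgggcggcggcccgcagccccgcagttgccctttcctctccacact
Mki67: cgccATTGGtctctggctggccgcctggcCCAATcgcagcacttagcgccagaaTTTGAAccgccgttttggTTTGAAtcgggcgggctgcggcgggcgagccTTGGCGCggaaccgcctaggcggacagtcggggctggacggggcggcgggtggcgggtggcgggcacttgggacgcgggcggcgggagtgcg
Rfc4: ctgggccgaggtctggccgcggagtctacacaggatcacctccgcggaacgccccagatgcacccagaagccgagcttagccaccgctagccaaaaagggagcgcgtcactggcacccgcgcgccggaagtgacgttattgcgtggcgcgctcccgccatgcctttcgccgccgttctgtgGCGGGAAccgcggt
Mcm5: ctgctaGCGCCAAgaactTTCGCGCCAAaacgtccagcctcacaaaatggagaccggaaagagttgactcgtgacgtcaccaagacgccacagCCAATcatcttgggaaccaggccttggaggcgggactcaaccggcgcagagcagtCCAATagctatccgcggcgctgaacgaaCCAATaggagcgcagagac
Cdc6: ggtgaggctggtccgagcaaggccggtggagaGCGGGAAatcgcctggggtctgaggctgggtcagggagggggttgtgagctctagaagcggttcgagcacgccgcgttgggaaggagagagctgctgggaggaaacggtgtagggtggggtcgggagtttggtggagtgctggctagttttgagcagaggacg
Kif11 and Ube2c carry a CHR just before the start with CCAAT boxes upstream, Cenpa has its CHR after the start, and Mki67 holds CHR, CCAAT and E2F letters together. Rfc4 and Cdc6 show an E2F match with no CHR, and Mcm5 shows overlapping E2F matches beside CCAAT boxes. No match to any of the motifs was found in the Nusap1 window.

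Neither the mitotic nor the S phase genes gave a single call at the adjusted threshold of 0.05 in any comparison with equally weighted arrays, so the values below describe differences that did not pass. At 24 h, 42 of the 43 genes had a lower mean than in untreated tumors, against 49.7% of all probe sets, with a median of -0.72 over the 43. At 48 h 35 genes were below 0 (48.8% of all probe sets), and at 72 h 25 (56.3%). At 24 h against control limma called 0 of 43 genes, where it called 0.0045% of all probe sets lower and 0.0495% higher. At 48 h the background was 0% lower and 0.0045% higher, and at 72 h 0% and 0.00901%. The smallest adjusted p among the 43 was 0.213 at 24 h (Kif11), 0.224 at 48 h (Aurkb) and 0.353 at 72 h (Rfc4).

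Counts without adjustment show where the low values sat. At 24 h, 17 genes were lower with an unadjusted p under 0.05 (11 mitotic, 6 S phase; 5.86% of all probe sets) and 0 higher (3.98%). At 48 h there were 10 lower (6 mitotic, 4 S phase; 8.01%) and 0 higher (5.3%). At 72 h 1 was lower, Rfc4 (5.39%), and 1 higher, Mki67 (5.85%). Read by arrays, the 3 HIFU tumors all lay below the 3 controls for 24 genes at 24 h (7.68% of all probe sets), 16 at 48 h (11.7%) and 4 at 72 h (10.1%), the last being Cdk1, Nusap1, Cdc45 and Rfc4. They all lay above the controls for 0 genes at 24 h (6.84%), 0 at 48 h (10.3%) and 2 at 72 h, Mki67 and Pola1 (8.99%). At 72 h the shares of lower genes were near or under the background.

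Over all 9 HIFU arrays against control, 38 of the 43 genes were below 0 (50.6% of all probe sets) and 11 were lower with an unadjusted p under 0.05 (8.59%), 0 higher (6.01%). Limma called 0 of 43 in that comparison (0% of all probe sets lower, 0.018% higher), and 0 of 43 in the F test over the 3 times (0.00901%).

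**Figure D1:**
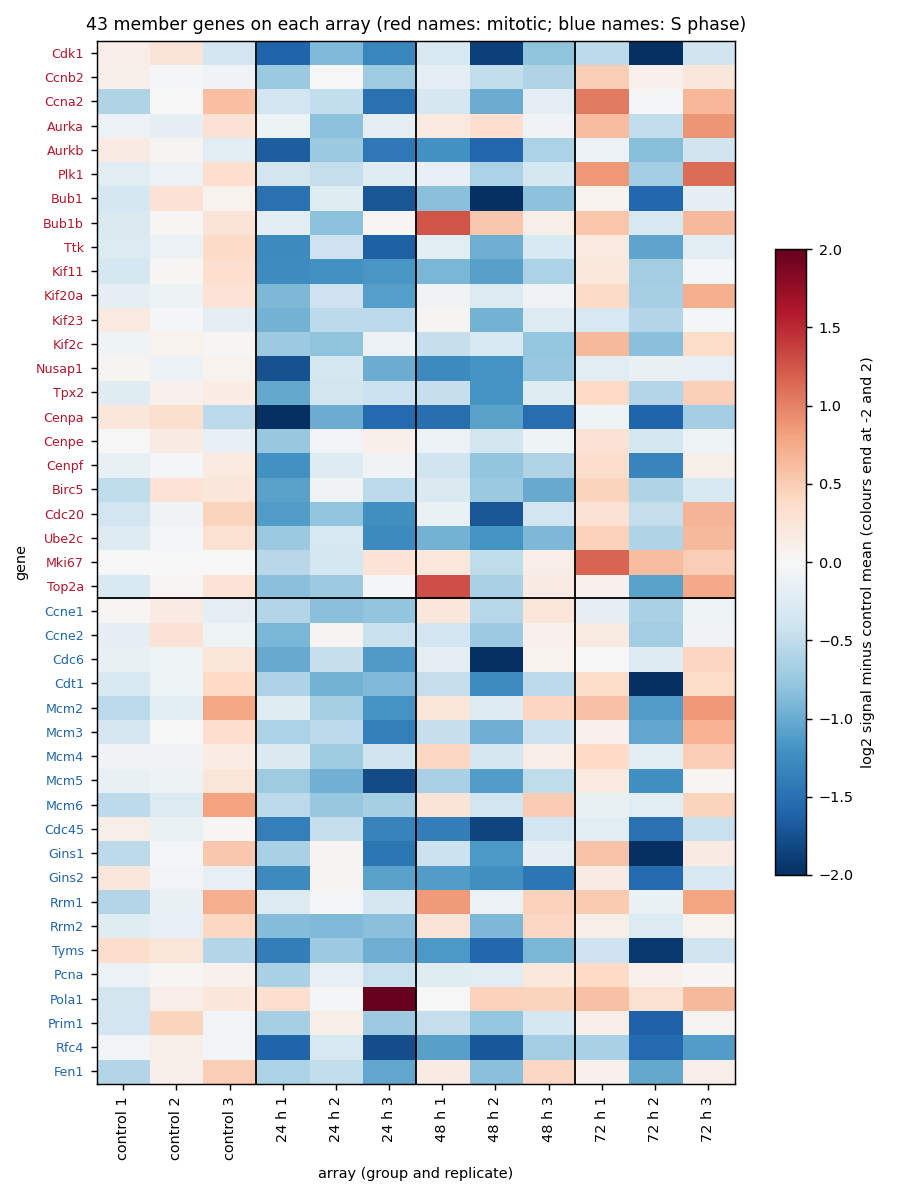
Log2 signal minus the control mean for each of the 43 genes (rows) on each of the 12 arrays (columns), with blue for lower and red for higher and colours that end at -2 and 2. The 24 h columns are blue in nearly every row, and at 72 h replicate 2 stands apart from replicates 1 and 3.

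The tumors of 1 group differed among themselves, and 2 arrays stood low for the whole set. At 72 h, replicate 2 had the lowest signal of its group for 40 of 43 genes (45.2% of all probe sets). There 39 genes lay below the control mean (58.3% of all probe sets), against 11 in replicate 1 (51.6%) and 16 in replicate 3 (51.8%). At 48 h, replicate 2 was lowest for 33 of 43 genes (39.2% of all probe sets). Among the untreated tumors, replicate 1 was lowest for 28 of 43 genes (34% of all probe sets). The median over the 23 mitotic genes, as signal minus the control mean, was -0.18, 0.01 and 0.19 in the controls, -0.94, -0.48 and -0.71 at 24 h, -0.29, -0.95 and -0.38 at 48 h, and 0.35, -0.60 and 0.23 at 72 h. All 24 h and 48 h arrays lay below the controls, and at 72 h only replicate 2 did. The 20 S phase genes had array medians of -0.22, -0.04 and 0.24 in the controls, -0.65, -0.49 and -0.94 at 24 h, -0.31, -0.87 and 0.08 at 48 h, and 0.15, -1.03 and 0.10 at 72 h. For S phase genes the 24 h arrays were all below the controls, while 48 h replicate 3 and 72 h replicates 1 and 3 lay among them.

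Transcripts of other cells also differed in level between the groups, and their part in the results was not tested. The skeletal muscle list (18 of 18 genes measured) had array medians from -1.51 to 2.20 in controls, 2.34 to 5.41 at 24 h, 2.94 to 4.43 at 48 h and 2.21 to 5.58 at 72 h, the highest in 72 h replicate 2. The neutrophil list (11 of 12) ran from -0.11 to 0.27 in controls, -0.05 to 2.54 at 24 h, 0.94 to 5.27 at 48 h and 5.72 to 9.73 at 72 h, again highest in replicate 2, and all 11 genes lay above all controls there. Mpo, a granule peroxidase, and Elane, a granule protease, both made by neutrophil precursors in the marrow, had log2 signals of 3.54 to 3.56 and 3.6 to 4.33 in controls, and of 11.39 to 13.88 and 9.32 to 12.59 at 72 h. Fibroblast genes (8 of 9) had -0.60 to 1.16 in controls, then 0.28 to 4.14, 1.48 to 5.61 and 2.5 to 6.60 at the 3 times. Macrophage genes (8 of 9) had -0.56 to 0.48, then -1.38 to 1.76, -0.28 to 2.41 and 0.87 to 4.16. Erythroid genes (4 of 10) had -0.20 to 0.38, then 0.25 to 0.50, 0.32 to 1.89 and 1.33 to 3.74, and endothelial genes (6 of 6) -0.18 to 0.42, then 0.24 to 2.30, 0.72 to 1.89 and 0.49 to 2.36. T and NK cell genes (9 of 10) had -0.60 to 0.17 in controls and -1.07 to -0.61 at 24 h, with 8 of the 9 genes below 0 and a median difference of -0.66. Their 24 h arrays, like those of the cell cycle genes, all lay below the controls. For the T and NK cell genes this was nearly a tie, at -0.607 against -0.6 in control replicate 2. They had -0.60 to -0.33 at 48 h and -0.80 to 0.11 at 72 h. B cell genes (5 of 7) had -0.01 to 0.04, then -0.16 to 0.39, -0.26 to 0.13 and -0.05 to 0.59. The neuroblastoma list (9 of 12), with Phox2a, Th, Dbh and Chgb, was measured on every array. It ran from -1.56 to 1.65 in controls, 0.06 to 1.47 at 24 h, -0.07 to 1.44 at 48 h and -1.27 to 1.23 at 72 h, so its arrays overlapped in all groups. Its lowest array was replicate 1 in controls, 3 at 24 h and 2 at 48 and 72 h. The S phase median was lowest on the same arrays, and the mitotic median on all of them but the 24 h one. Replicate 2 also had the highest muscle, fibroblast and macrophage medians at 48 and 72 h. Whether these levels go together was not tested. With the muscle median of each array as a covariate, the median difference of the mitotic genes moved from -0.66 to -0.28 at 24 h, from -0.51 to -0.056 at 48 h and from -0.05 to 0.43 at 72 h, and that of the S phase genes from -0.73 to -0.32, from -0.43 to 0.042 and from -0.23 to 0.19. In that fit 33, 22 and 6 of the 43 genes were below 0 at 24, 48 and 72 h. The matching shares of all probe sets were not counted, so these counts cannot be read as particular to the 43 genes. The muscle median was higher on every HIFU array (2.21 or more) than on every control (2.20 or less). Muscle content and HIFU therefore cannot be told apart in that fit, and its differences rest on extrapolation between the groups.

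**Figure D2:**
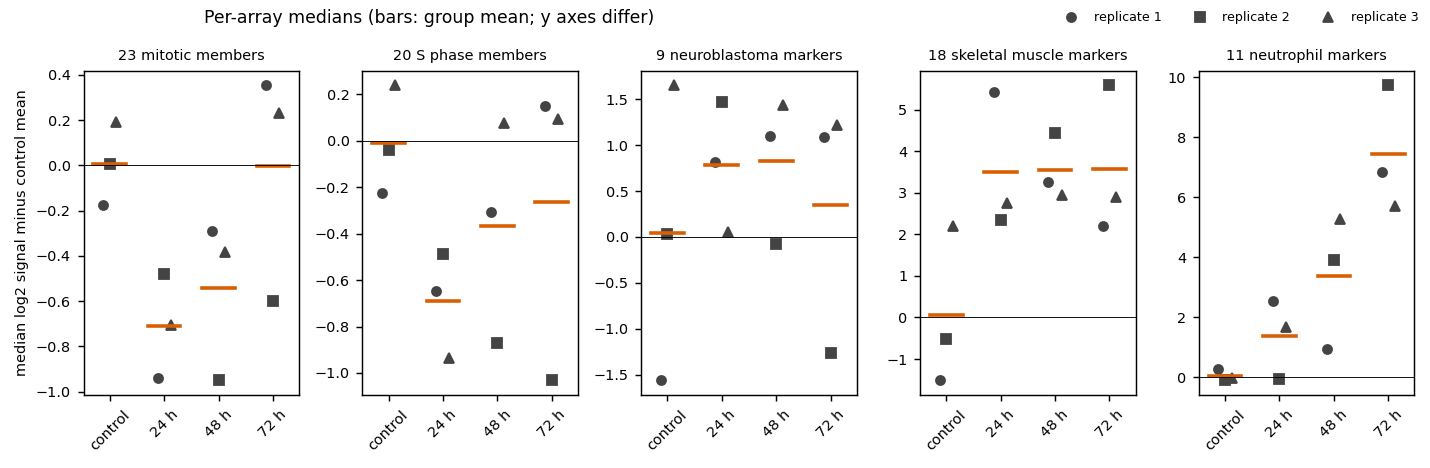
Median over each gene list of the log2 signal minus the control mean, per array, with 1 symbol per replicate and a bar at the group mean, for the mitotic, S phase, neuroblastoma, skeletal muscle and neutrophil lists. The mitotic and S phase medians are low on all 24 h arrays and on replicate 2 at 48 and 72 h, and the neutrophil median is 5.72 or more on all 72 h arrays; the y axes differ between panels.

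Among the mitotic cyclins, the means of Ccnb2 and Ccna2 were below the control mean at 24 and 48 h and above it at 72 h. For Ccnb2, a B-type cyclin that partners Cdk1, log2 signals were 11.02, 10.88 and 10.85 in controls, 10.17, 10.93 and 10.21 at 24 h, 10.74, 10.42 and 10.31 at 48 h and 11.41, 11 and 11.15 at 72 h. The 48 h arrays all lay below the controls and the 72 h mean was higher than theirs, with a difference from control of -0.48 ± 0.25 SE at 24 h, -0.43 ± 0.25 SE at 48 h and 0.27 ± 0.25 SE at 72 h (limma adjusted p = 0.569, 0.476 and 0.749). Ccna2 encodes cyclin A2, which acts in both S phase and entry to mitosis. Its signals were 12.79, 13.40 and 13.99 in controls, 13.01, 12.90 and 11.90 at 24 h, 13.05, 12.40 and 13.21 at 48 h and 14.44, 13.35 and 14.05 at 72 h, so every group overlapped the wide spread of the controls. The difference was -0.79 ± 0.41 SE at 24 h and 0.55 ± 0.41 SE at 72 h, and 72 h minus 24 h was 1.34 ± 0.41 SE (adjusted p = 0.808), the widest of the 43 genes. Cdk1, the kinase of mitotic entry, differed from control by -1.27 ± 0.49 SE, -1 ± 0.49 SE and -1.02 ± 0.49 SE at the 3 times. Its 72 h arrays, at 11.02, 9.38 and 11.14, lay below all controls (11.67, 11.79 and 11.15), though replicate 3 was almost level with the lowest control. Without replicate 2 the 72 h difference was -0.46 ± 0.42 SE. With the muscle covariate the differences of Cdk1 were -0.14, 0.14 and 0.12.

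The mitotic kinases had unequal differences at 24 h. Aurkb, the kinase of the chromosomal passenger complex, had signals of 11.52, 11.42 and 11.15 in controls, 9.72, 10.62 and 9.94 at 24 h, 10.16, 9.79 and 10.73 at 48 h and 11.24, 10.51 and 10.97 at 72 h. All 24 h and 48 h arrays lay below all controls, at -1.27 ± 0.32 SE (adjusted p = 0.261) and -1.14 ± 0.32 SE (adjusted p = 0.224), a 2.41-fold and a 2.20-fold lower mean. Ttk encodes Mps1, a spindle checkpoint kinase. Signals for Ttk were 9.51, 9.68 and 10.18 in controls, 8.52, 9.37 and 8.16 at 24 h, 9.56, 8.82 and 9.49 at 48 h and 9.99, 8.74 and 9.57 at 72 h, and the 24 h arrays were below the controls, by -1.11 ± 0.39 SE, while 48 h and 72 h overlapped them. Bub1, another checkpoint kinase, differed by -1.14 ± 0.51 SE and -1.24 ± 0.51 SE at 24 and 48 h. Its relative Bub1b differed by -0.33 ± 0.36 SE and 0.64 ± 0.36 SE, with opposite signs. Aurka, the spindle pole kinase, and Plk1, the polo kinase of mitotic entry and exit, differed by -0.37 ± 0.35 SE and -0.36 ± 0.40 SE at 24 h and by 0.34 ± 0.35 SE and 0.43 ± 0.40 SE at 72 h.

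All 6 genes of spindle motors and spindle assembly had their 3 arrays at 24 h below the 3 controls, as did 24 of all 43 genes and 7.68% of all probe sets. Kif11, the kinesin that pushes spindle poles apart, had signals of 11.88, 12.25 and 12.56 in controls, 10.97, 11.02 and 11.07 at 24 h, 11.31, 11.14 and 11.60 at 48 h and 12.44, 11.53 and 12.20 at 72 h. The 24 h arrays lay close together (SD 0.05, n = 3), and the group differed from control by -1.21 ± 0.27 SE (adjusted p = 0.213), by -0.88 ± 0.27 SE at 48 h and by -0.17 ± 0.27 SE at 72 h. Nusap1 bundles spindle microtubules around chromosomes. Its signals of 11.39, 11.22 and 11.40 in controls, 9.59, 10.98 and 10.35 at 24 h, 10.06, 10.14 and 10.58 at 48 h and 11.11, 11.19 and 11.18 at 72 h put all 9 HIFU arrays below all 3 controls, although the 72 h gap was small, at -0.18 ± 0.31 SE, after -1.03 ± 0.31 SE and -1.08 ± 0.31 SE. The other 4 genes, Kif20a, Kif23, Kif2c and Tpx2, differed by -0.80 ± 0.33 SE, -0.66 ± 0.28 SE, -0.54 ± 0.35 SE and -0.61 ± 0.34 SE at 24 h. Kif20a and Kif23 serve cytokinesis, Kif2c removes tubulin from microtubule ends and Tpx2 activates Aurka. At 72 h these 4 lay between -0.31 ± 0.28 SE (Kif23) and 0.15 ± 0.33 SE (Kif20a).

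Cenpa, the histone variant that marks centromeres, showed the lowest 24 h difference of the 43 genes. Its signals were 12.06, 12.15 and 11.30 in controls, 9.77, 10.84 and 10.28 at 24 h, 10.33, 10.76 and 10.31 at 48 h and 11.75, 10.23 and 11.15 at 72 h. No 24 h or 48 h array reached the controls, and the differences were -1.54 ± 0.40 SE (adjusted p = 0.277, a 2.91-fold lower mean), -1.37 ± 0.40 SE and -0.79 ± 0.40 SE. Birc5, or survivin, belongs to the passenger complex with Aurkb. Its signals, 10.71, 11.50 and 11.45 in controls, 10.15, 11.15 and 10.69 at 24 h, 10.93, 10.48 and 10.21 at 48 h and 11.66, 10.62 and 10.91 at 72 h, overlapped the controls at every time, with differences of -0.56 ± 0.36 SE, -0.68 ± 0.36 SE and -0.16 ± 0.36 SE. Cenpe, a kinesin of the kinetochore, and Cenpf, a kinetochore protein, differed by -0.24 ± 0.27 SE and -0.51 ± 0.42 SE at 24 h.

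Both genes of the anaphase-promoting complex were low at 24 h and near the control mean at 72 h. Cdc20, its activator, had signals of 7.98, 8.30 and 8.81 in controls, 7.25, 7.57 and 7.13 at 24 h, 8.23, 6.65 and 7.98 at 48 h and 8.66, 7.89 and 9.05 at 72 h. The 24 h arrays were all below the controls, by -1.05 ± 0.42 SE, whereas 72 h overlapped them, at 0.17 ± 0.42 SE. Ube2c is the ubiquitin-conjugating enzyme of the complex. Its signals of 13.02, 13.24 and 13.58 in controls, 12.54, 12.96 and 12 at 24 h, 12.34, 12.08 and 12.38 at 48 h and 13.74, 12.68 and 13.93 at 72 h placed all 24 h and 48 h arrays below the controls, by -0.78 ± 0.35 SE and -1.01 ± 0.35 SE, and 72 h at 0.17 ± 0.35 SE. The 72 h arrays of Ube2c were all above the 48 h arrays, a difference of 1.18 ± 0.35 SE (adjusted p = 0.744).

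Mki67, the gene of the proliferation antigen Ki-67, had the highest 72 h difference of the mitotic genes. Its signals were 15.27, 15.25 and 15.27 in controls, 14.71, 14.91 and 15.53 at 24 h, 15.48, 14.75 and 15.39 at 48 h and 16.42, 15.88 and 15.76 at 72 h. The controls were almost equal, the 24 h and 48 h arrays spread on both sides of them, and the 72 h arrays were all above them, by 0.76 ± 0.29 SE (adjusted p = 0.369). At 24 h the difference was -0.21 ± 0.29 SE. Top2a, the topoisomerase that untangles replicated chromosomes, had signals of 10.82, 11.16 and 11.39 in controls, 10.28, 10.40 and 11.09 at 24 h, 12.41, 10.47 and 11.29 at 48 h and 11.21, 10.05 and 11.88 at 72 h. Its arrays overlapped the controls at all times, with differences of -0.53 ± 0.52 SE, 0.27 ± 0.52 SE and -0.077 ± 0.52 SE, and the sign at 48 h depended on replicate 1.

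**Figure D3:**
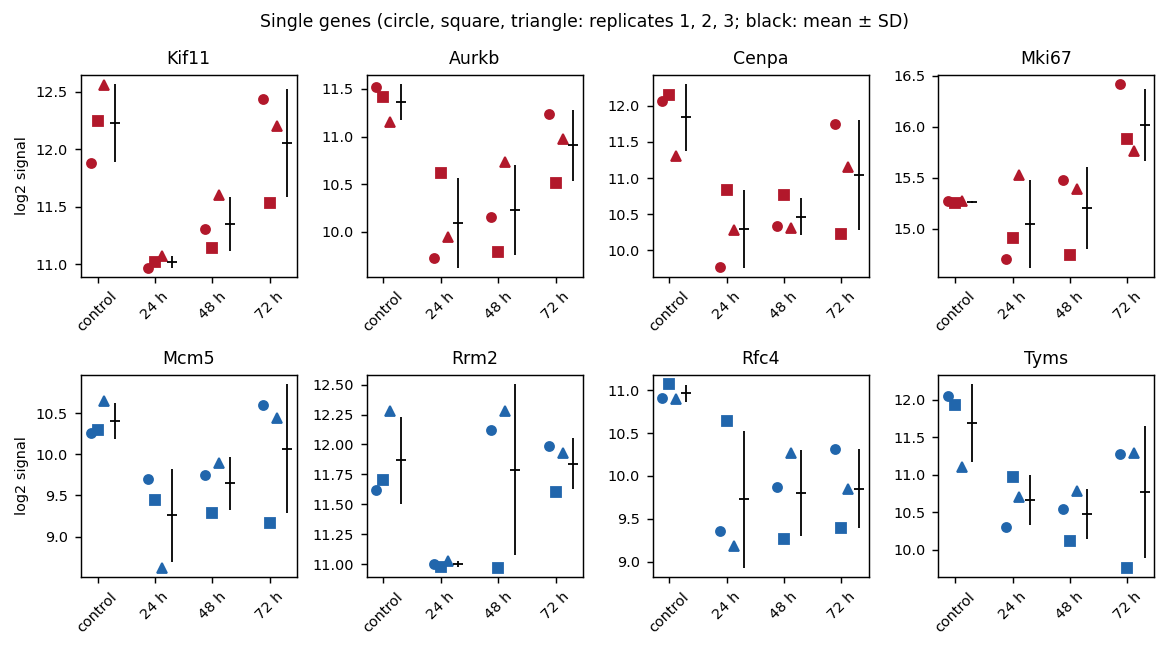
Log2 signals of 4 mitotic (red) and 4 S phase genes (blue) on each array, with circle, square and triangle for replicates 1, 2 and 3 and the mean with its SD in black; the y axes differ and do not start at 0. Kif11 and Rrm2 have tightly grouped low values at 24 h, Rfc4 is below the controls on all 9 HIFU arrays, and Mki67 is above them on the 3 arrays at 72 h.

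Of the S phase genes, cyclin E1 was low only at the first time by its arrays, and cyclin E2 overlapped the controls throughout. Ccne1 had signals of 10.29, 10.42 and 10.08 in controls, 9.67, 9.42 and 9.47 at 24 h, 10.49, 9.69 and 10.50 at 48 h and 10.07, 9.61 and 10.18 at 72 h. All 24 h arrays lay below the controls, by -0.74 ± 0.26 SE (adjusted p = 0.407), and the 48 h and 72 h groups, at -0.037 ± 0.26 SE and -0.31 ± 0.26 SE, overlapped them. The signals of Ccne2 were 9.47, 9.96 and 9.58 in controls, 8.76, 9.72 and 9.22 at 24 h, 9.29, 8.95 and 9.76 at 48 h and 9.85, 8.98 and 9.60 at 72 h, and the differences were -0.44 ± 0.32 SE, -0.34 ± 0.32 SE and -0.19 ± 0.32 SE.

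The origin licensing factors were both below the controls on every 24 h array. Cdc6 had signals of 8.47, 8.53 and 8.87 in controls, 7.61, 8.16 and 7.49 at 24 h, 8.43, 6.63 and 8.69 at 48 h and 8.61, 8.36 and 9.06 at 72 h. Its 48 h value rested on replicate 2, and the differences were -0.87 ± 0.46 SE, -0.71 ± 0.46 SE and 0.053 ± 0.46 SE. Cdt1 had signals of 11.95, 12.17 and 12.66 in controls, 11.65, 11.32 and 11.37 at 24 h, 11.78, 11 and 11.73 at 48 h and 12.63, 10.14 and 12.63 at 72 h. The 24 h and 48 h arrays lay below the controls, by -0.81 ± 0.56 SE and -0.76 ± 0.56 SE. At 72 h replicate 2 lay far below the rest of its group, which gave -0.46 ± 0.56 SE.

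The 5 measured subunits of the MCM helicase, the motor that unwinds DNA at the fork, were all lower in mean at 24 h, from -1.15 ± 0.39 SE (Mcm5) to -0.47 ± 0.27 SE (Mcm4), and at 72 h lay between -0.33 ± 0.39 SE (Mcm5) and 0.22 ± 0.27 SE (Mcm4). The signals of Mcm5 were 10.26, 10.30 and 10.65 in controls, 9.70, 9.45 and 8.62 at 24 h, 9.75, 9.29 and 9.90 at 48 h and 10.60, 9.17 and 10.44 at 72 h. All its 24 h and 48 h arrays were below the controls, at 48 h by -0.76 ± 0.39 SE, and 72 h overlapped them because replicates 1 and 3 lay at control levels. Mcm4 signals were 10.14, 10.13 and 10.35 in controls, 9.92, 9.49 and 9.81 at 24 h, 10.62, 9.87 and 10.34 at 48 h and 10.61, 9.98 and 10.70 at 72 h. Its 24 h arrays were below the controls, while the difference was 0.07 ± 0.27 SE at 48 h and 0.22 ± 0.27 SE at 72 h. Mcm2, Mcm3 and Mcm6 differed by -0.69 ± 0.51 SE, -0.84 ± 0.41 SE and -0.65 ± 0.36 SE at 24 h and by 0.14 ± 0.51 SE, -0.62 ± 0.41 SE and 0.13 ± 0.36 SE at 48 h.

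The factors that activate the helicase had low means at 24 and 48 h. Cdc45, which joins MCM at the fork, had signals of 10.75, 10.49 and 10.65 in controls, 9.26, 10.15 and 9.30 at 24 h, 9.24, 8.80 and 10.25 at 48 h and 10.40, 9.13 and 10.18 at 72 h. All 9 HIFU arrays lay below all controls, with differences of -1.06 ± 0.42 SE, -1.20 ± 0.42 SE and -0.73 ± 0.42 SE. Gins2 is a subunit of GINS, the complex that completes the active helicase. With signals of 9.84, 9.56 and 9.46 in controls, 8.35, 9.68 and 8.55 at 24 h, 8.51, 8.39 and 8.17 at 48 h and 9.78, 8.06 and 9.31 at 72 h, its 48 h arrays were all below the controls, by -1.26 ± 0.43 SE (adjusted p = 0.277, a 2.40-fold lower mean), and its 24 h arrays were not, at -0.76 ± 0.43 SE. Gins1 differed by -0.68 ± 0.61 SE, -0.59 ± 0.61 SE and -0.42 ± 0.61 SE and overlapped the controls each time.

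The genes of nucleotide supply did not share a course. Rrm2, the small subunit of ribonucleotide reductase, had signals of 11.62, 11.70 and 12.28 in controls, 11, 10.98 and 11.03 at 24 h, 12.12, 10.97 and 12.28 at 48 h and 11.99, 11.60 and 11.93 at 72 h. The 24 h arrays were close together (SD 0.025, n = 3) and below all controls, by -0.86 ± 0.33 SE (adjusted p = 0.439). The 48 h and 72 h means were near the control mean (-0.077 ± 0.33 SE and -0.027 ± 0.33 SE), with 48 h replicate 2 low. Tyms, thymidylate synthase, had signals of 12.05, 11.93 and 11.10 in controls, 10.31, 10.97 and 10.71 at 24 h, 10.54, 10.12 and 10.78 at 48 h and 11.28, 9.76 and 11.29 at 72 h. Its 24 h and 48 h arrays were below all controls, by -1.03 ± 0.42 SE and -1.21 ± 0.42 SE, and at 72 h it differed by -0.92 ± 0.42 SE, or by -0.41 ± 0.34 SE without 72 h replicate 2. Rrm1, the large reductase subunit, differed by -0.21 ± 0.37 SE at 24 h and 0.40 ± 0.37 SE at 72 h.

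Within the synthesis machinery, Rfc4 and Pola1 lay at opposite ends. Rfc4, a subunit of the loader that places Pcna on DNA, had signals of 10.91, 11.07 and 10.90 in controls, 9.36, 10.64 and 9.18 at 24 h, 9.87, 9.27 and 10.27 at 48 h and 10.31, 9.40 and 9.85 at 72 h. All 9 HIFU arrays were below the 3 controls, by -1.23 ± 0.40 SE, -1.16 ± 0.40 SE and -1.11 ± 0.40 SE (adjusted p = 0.374, 0.276 and 0.353), so the difference was as large at 72 h as at 48 h to within its SE. Pcna, the sliding clamp, had signals of 15.54, 15.68 and 15.75 in controls, 15.01, 15.50 and 15.21 at 24 h, 15.42, 15.43 and 15.86 at 48 h and 16.05, 15.74 and 15.68 at 72 h. Its 24 h arrays were below the controls by -0.42 ± 0.22 SE, and 48 h and 72 h, at -0.087 ± 0.22 SE and 0.17 ± 0.22 SE, overlapped them. Pola1, the catalytic subunit of polymerase alpha, was the exception at 24 h, with 0.84 ± 0.47 SE. That value rested on replicate 3, at 8.73 against 6.86 and 6.51 in the others. Prim1, the primase that works with Pola1, differed by -0.43 ± 0.44 SE and Fen1, the flap nuclease of lagging strands, by -0.72 ± 0.42 SE at 24 h. Rfc4, Cdc45 and Nusap1 were the 3 of 43 genes below all controls on every HIFU array, where 1.65% of all probe sets were.

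**Figure D4:**
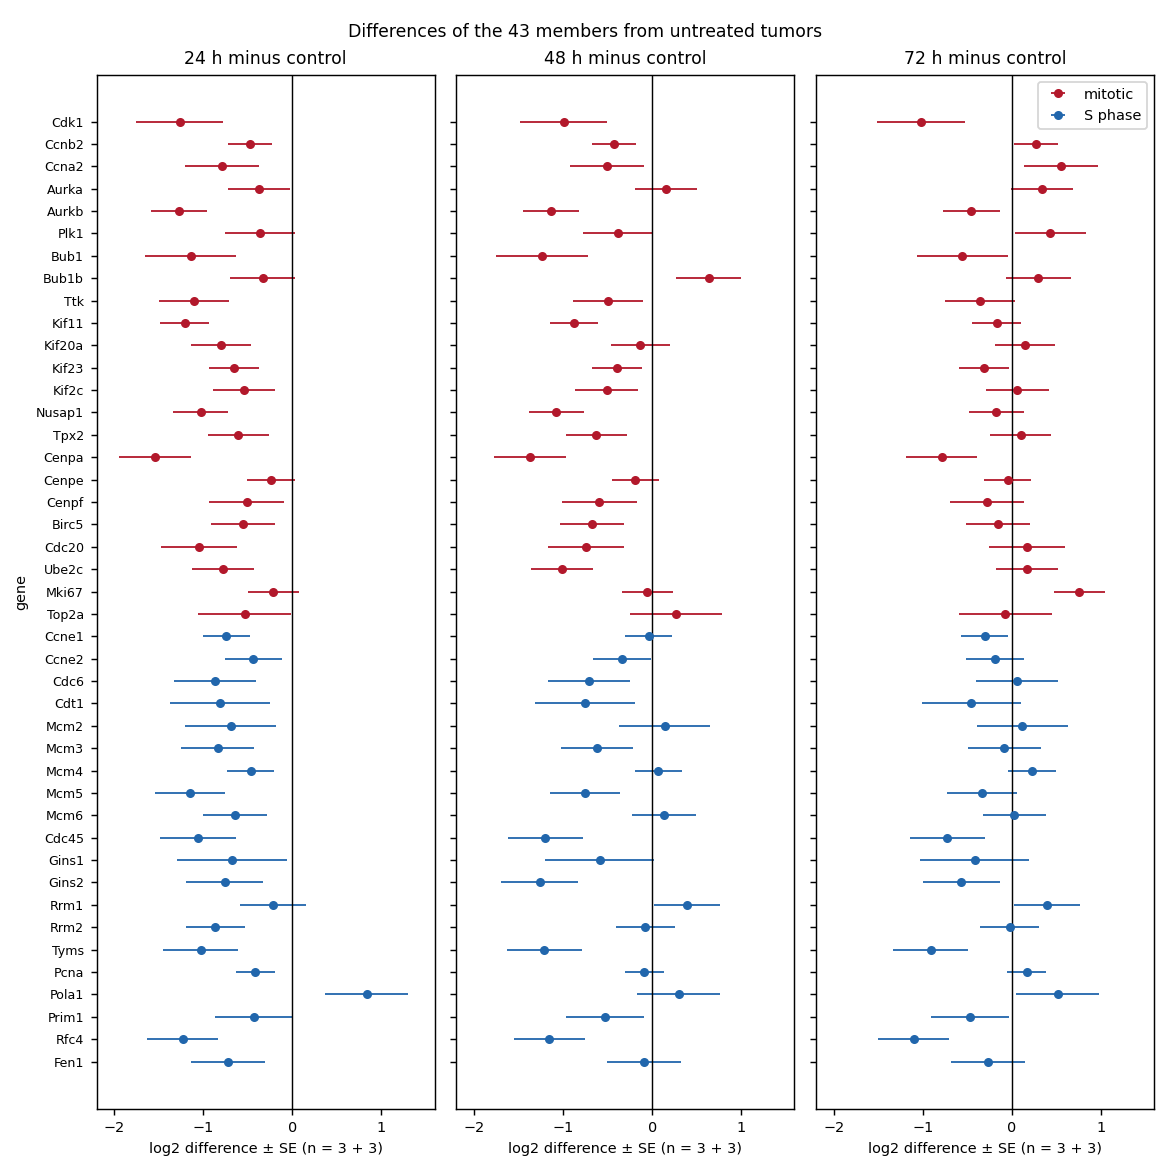
Difference in log2 signal from control for the 43 genes at 24, 48 and 72 h, with the limma SE as the bar, mitotic genes in red and S phase genes in blue. At 24 h all points but Pola1 lie left of 0, and at 72 h the mitotic points scatter on both sides of it.

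Mitotic and S phase genes had similar median differences at 24 and 48 h, and mitotic genes the higher one at 72 h. The median difference was -0.66 for mitotic and -0.73 for S phase genes at 24 h, -0.51 and -0.43 at 48 h, and -0.05 and -0.23 at 72 h. Mitotic minus S phase medians were thus 0.073, -0.075 and 0.18, beside a pooled SD of 0.20 for that difference between single arrays of a group. Per array it was 0.05, 0.05 and -0.04 in controls, -0.29, 0.01 and 0.23 at 24 h, 0.02, -0.08 and -0.46 at 48 h, and 0.20, 0.43 and 0.14 at 72 h. The 72 h arrays were all above the controls in this difference, the 24 h arrays lay on both sides of them, and no test was run on these medians. Leaving out a single array turned the sign at 24 h, to -0.14 without 24 h replicate 3, and moved the 48 h value to -0.29 without control replicate 2. The 72 h value kept its sign without any single array, from 0.14 without control replicate 3 to 0.35 without 72 h replicate 3, and was 0.23 without 72 h replicate 2.

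Between times, the 72 h tumors had higher means than the 24 h tumors for 41 of 43 genes, all 23 mitotic and 18 of 20 S phase, while 54.9% of all probe sets were lower. The exceptions were Pola1 and Prim1. The median of 72 h minus 24 h was 0.75 for mitotic and 0.44 for S phase genes. No gene passed adjustment (0% of all probe sets in either direction), the smallest adjusted p being 0.636 for Kif11, at 1.04 ± 0.27 SE. With an unadjusted p under 0.05, 12 genes were higher (9 mitotic, 3 S phase; 3.22% of all probe sets) and 0 lower (2.35%), and the 72 h arrays lay above all 24 h arrays for 11 (4.53%). For 72 h minus 48 h, 6 mitotic genes were higher by that measure, Ube2c, Nusap1, Mki67, Ccnb2, Kif11 and Ccna2, and 0 S phase genes (3.33% of all probe sets). For 48 h minus 24 h the medians were 0.16 and 0.19. These comparisons and those with control share arrays and are not independent of each other. Without 72 h replicate 2, 31 of 43 genes were above 0 at 72 h against control, with medians of 0.36 (mitotic) and 0.13 (S phase), and 72 h minus 24 h had medians of 1.04 and 0.81, again with 0 genes called.

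Without adjustment but with a log2 difference of at least 1 in either direction, 12 of 43 genes passed at 24 h, all lower (5.39% of all probe sets), 9 at 48 h, all lower (7.31%), and 1 at 72 h, lower (7.3%). Over all HIFU arrays 4 passed, all lower (6.75%). Between times, 0 passed for 48 h minus 24 h (0.694%), 2 for 72 h minus 48 h (1.78%) and 3 for 72 h minus 24 h (2.41%), all higher.

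One alternative gave calls at the adjusted threshold. With arrays weighted by their fit, at 0.31 for 72 h replicate 2 and up to 4.19 for control replicate 2, 7 genes were lower at 24 h with an adjusted p under 0.05, namely Cdk1, Aurkb, Kif11, Nusap1, Cenpa, Tyms and Rfc4, where 2.64% of all probe sets were, and 0 were higher (2.4%). At 48 h there were 4 lower, Aurkb, Cenpa, Gins2 and Tyms (2.85% of all probe sets), and 0 higher (1.41%). At 72 h Rfc4 was lower (4.4%) and Aurka, Plk1 and Mki67 were higher (3.92%). Over all HIFU arrays against control, 10 were lower, where 9.87% of all probe sets were, and 0 were higher (7.19%).

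The wider lists of mitotic and replication genes had medians of the same sign, also with 0 calls in every list. The 44 measured genes of other mitotic functions had medians of -0.75, -0.62 and -0.32 at 24, 48 and 72 h, and 16, 14 and 3 were lower and 0 higher with an unadjusted p under 0.05, where 5.86%, 8.01% and 5.39% of all probe sets were lower. The 72 h count is near that background. Sgo1, the protector of centromeric cohesion, differed by -0.80 ± 0.31 SE, -1.57 ± 0.31 SE and -0.92 ± 0.31 SE, with all 9 HIFU arrays below the controls. Hmmr, a spindle protein, and Tacc3, a spindle crosslinker, differed by -1.63 ± 0.36 SE and -1.65 ± 0.39 SE at 48 h, and the kinase Pbk by -1.82 ± 0.47 SE at 24 h. The 8 genes of condensin, the complex that compacts chromosomes, had medians of -0.68, -0.39 and -0.25, led by Smc4 at -1.05 ± 0.27 SE at 24 h, and with Smc2 at -0.96 ± 0.32 SE, Ncapd2 at -0.50 ± 0.34 SE and Ncaph2 at -0.94 ± 0.34 SE at 48 h. Other origin and fork genes (14) had medians of -0.41, -0.49 and -0.40, with Orc4, an origin recognition subunit, at -1.58 ± 0.45 SE at 48 h, Dbf4 at -0.85 ± 0.30 SE and Orc1 at -0.75 ± 0.26 SE at 24 h and Gins3 at -1.15 ± 0.41 SE at 48 h. Other genes of DNA synthesis (21) had -0.64, -0.52 and -0.47. Among them Rpa3, of the complex that coats single-stranded DNA, differed by -1.79 ± 0.52 SE at 48 h and -1.48 ± 0.52 SE at 72 h, Rnaseh2a by -1.36 ± 0.46 SE and -1.43 ± 0.46 SE at 24 and 72 h, Prim2 by -0.96 ± 0.34 SE and Pold3 by -0.76 ± 0.36 SE at 24 h. Checkpoint and repair genes (16) had -0.33, -0.35 and -0.24, with Chek2, a DNA damage kinase, at -1.33 ± 0.37 SE and below all controls on every HIFU array, Cdc25c at -0.96 ± 0.35 SE, Chek1 at -0.52 ± 0.46 SE and Brca2 at -0.78 ± 0.44 SE at 24 h.

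**Figure D5:**
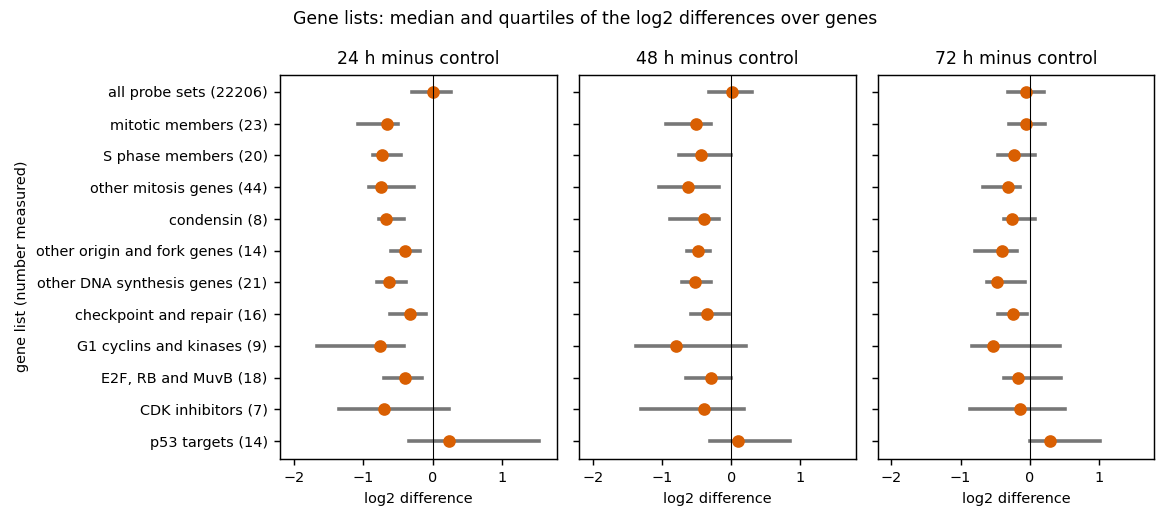
Median (point) and quartiles (bar) over genes of the log2 difference from control at 24, 48 and 72 h, for all probe sets, the mitotic and S phase genes and the other lists, with the number measured in brackets. At 24 h every list but p53 targets has its median below 0, while that of all probe sets is at 0, and at 72 h the mitotic median is at that of all probe sets.

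The regulators upstream were mixed. In the list of cell cycle entry cyclins and kinases (9 genes; medians -0.77, -0.80 and -0.53) Skp2, the ubiquitin ligase subunit that removes p27, had signals of 12.16, 12.06 and 10.79 in controls, 9.47, 10.16 and 8.81 at 24 h, 9.21, 9 and 9.71 at 48 h and 11.14, 8.84 and 10.09 at 72 h. Its 24 h and 48 h arrays lay below all controls, by -2.19 ± 0.57 SE and -2.36 ± 0.57 SE. Cdk2, the partner of cyclins E and A, was below the controls on all 9 HIFU arrays, by -2.05 ± 0.53 SE, -1.63 ± 0.53 SE and -1.25 ± 0.53 SE. Ccnd3, a D-type cyclin, differed by -1.67 ± 0.55 SE at 24 h and 0.13 ± 0.55 SE at 72 h, and Cdk6, its partner kinase, by -0.41 ± 0.74 SE and 2.16 ± 0.74 SE, with its highest signal, 10.75, in 72 h replicate 2. Of the inhibitors of these kinases (7 genes; medians -0.70, -0.40 and -0.14), Cdkn1a, which encodes p21, had signals of 9.71, 9.67 and 11.44 in controls, 13.98, 12.18 and 12.75 at 24 h, 10.99, 11.99 and 10.88 at 48 h and 11.57, 13.22 and 12.15 at 72 h. Its 24 h and 72 h arrays were above all controls, by 2.70 ± 0.61 SE at 24 h and 2.04 ± 0.61 SE at 72 h (limma, adjusted p of 0.213 and 0.309), and the 48 h arrays overlapped them at 1.01 ± 0.61 SE. Cdkn1b, which encodes p27, had the opposite sign, at -1.69 ± 0.52 SE, -1.66 ± 0.52 SE and -1.39 ± 0.52 SE, as did Cdkn2c at 24 h (-1.88 ± 0.50 SE), and Cdkn2d differed by -0.70 ± 0.33 SE at 24 h and 0.60 ± 0.33 SE at 72 h.

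E2F, RB and MuvB genes (18; medians -0.39, -0.30 and -0.17) held members above the controls at 72 h. E2f2, an activator E2F, had signals of 9.62, 9.36 and 9.54 in controls, 9.12, 9.06 and 9.41 at 24 h, 9.23, 7.94 and 9.99 at 48 h and 11.12, 11.95 and 10.86 at 72 h, so its 72 h arrays were all above the controls, by 1.8 ± 0.44 SE (adjusted p = 0.266), while 24 h and 48 h were at -0.31 ± 0.44 SE and -0.45 ± 0.44 SE. E2f8, a repressor E2F, was above all controls at 72 h by 1.39 ± 0.32 SE (adjusted p = 0.259). Rbl1, an RB relative, and Lin9, a MuvB subunit, differed by -0.83 ± 0.29 SE and -0.90 ± 0.34 SE at 24 h. The p53 target list (14 genes) had medians of 0.23, 0.10 and 0.30, with 1, 1 and 0 genes lower and 2, 1 and 1 higher at an unadjusted p under 0.05, where 5.86%, 8.01% and 5.39% of all probe sets were lower and 3.98%, 5.3% and 5.85% higher, so that counts of 0 to 2 among 14 genes show nothing about the list. Beside Cdkn1a, Gadd45a, a stress gene, was above all controls at 24 h (1.71 ± 0.59 SE), whereas Sesn2 (-0.70 ± 0.27 SE) and Fas (-0.57 ± 0.27 SE) had negative differences.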

How the data were processed

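RNA from 12 tumors was measured on Affymetrix Mouse Clariom S arrays. The values the authors deposited are log2 signals per probe set; the base was read from their range (1.75 to 19.93), and the submitters' processing notes name Transcriptome Analysis Console 4.0, with the summarization and background steps not given in the sources used here. Array medians lay between 5.43 and 5.68, no 2 arrays were identical, and no further scaling was applied. Where arrays were scaled to each other, a change in all transcripts together would not show, and each difference is measured against the bulk of an array's genes. Probe sets were named through the platform annotation and RefSeq gene numbers (19572 of 22206).

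Groups were compared by lmFit and eBayes from limma 3.58.1, run under R 4.3.3 (1 mean per group, all 12 arrays, two-sided, Benjamini-Hochberg over 22206 probe sets, threshold 0.05); p-values in the text are limma's. Promoters came from RefSeq windows of GRCm38.p6, and Python 3.11.15 drew the figures. The fit was run on simulated data with independent noise for each gene, which cannot show how it handles differences between whole arrays. Its power for differences of the size seen in these genes is not given here. Same-numbered arrays did not deviate together on average, with mean correlations of -0.11, -0.15 and -0.04 for replicates 1, 2 and 3. Single pairs ran from -0.61 to 0.62, the highest in replicate 2. The replicate number was therefore not used as a block. Values on every array are given for the 2 genes of each of 12 role groups with the smallest p of the moderated F test over the 3 times, and differences for up to 4 genes of each of the 9 other pathway lists. Other genes, among them Cdk1, Pola1, Mpo and Elane, were picked after their values were seen. The genes and lists were chosen with earlier results of these data known. Alternatives were a replicate block, a filter on dim probe sets, quantile normalization, median centring, weights per array and a variance trend fitted robustly. Others were a fit to the 2 groups of a comparison alone, a muscle covariate, leaving out each array, and averaging each gene's probe sets. A fold threshold (log2 difference of at least 1 and unadjusted p under 0.05) was also used. Averaging left the genes described here unchanged, as each had 1 probe set.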

Additional observations from a re-analysis of the deposited data

Results flagged for a closer look

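A rule picked the genes given here from the 43, looking at every pair of times. It asked for all arrays of 1 time below the control mean and all of the other above it. The share of all probe sets that meet this rule was not counted, and the p-values below use the values that picked the genes. Ccnb2 was below the control mean on all 3 arrays at 48 h and above it on all 3 at 72 h. Its mean differences were -0.43 and 0.27, so that 72 h minus 48 h was 0.70 ± 0.25 SE. The difference between the times was tested with limma and did not pass adjustment (adjusted p = 0.746). Pcna was below the control mean on all arrays at 24 h and above it on all arrays at 72 h, with means of -0.42 and 0.17 and a difference of 0.58 ± 0.22 SE (limma, adjusted p = 0.843). In both genes the later arrays overlapped the controls, and neutrophil and muscle transcripts were higher at 72 h than in controls. With the muscle covariate Ccnb2 differed from control by -0.11 at 48 h and 0.59 at 72 h. Pcna differed in that fit by -0.25 at 24 h and 0.34 at 72 h. The part of neutrophils was not fitted, and the part of neither cell type in the differences between times was tested.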

How the results depend on the processing

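No member passed the adjusted threshold at any time under the replicate block (0 of 43 at 24, 48 and 72 h), the filter on dim probe sets or quantile normalization. The same held for median centring, trend with robust estimation, only the groups compared, the muscle covariate and leaving out any single array. Each group held 1 array of every replicate number, so the block could change only SE and p-values. The mitotic medians under it, -0.66, -0.51 and -0.05, were therefore fixed beforehand. Averaging the probe sets of a gene could change nothing among the members, because each of the 43 had 1 probe set. Because same-numbered arrays did not deviate together on average, the block was not used beyond this, and it changed no call among the members. With array weights 7, 4 and 4 members passed at 24, 48 and 72 h and 10 over all HIFU arrays, and the mitotic median at 72 h was 0.32. With an unadjusted p under 0.05 and a log2 difference of at least 1, 12, 9 and 1 members passed at the 3 times (5.39%, 7.31% and 7.3% of all probe sets), 4 over all HIFU arrays (6.75%), 2 for 72 h minus 48 h (1.78%) and 3 for 72 h minus 24 h (2.41%). Quantile normalization left 2 members with all 72 h arrays below the controls in place of 4. With the muscle covariate the mitotic medians were -0.28, -0.056 and 0.43 and the S phase median at 48 h was 0.042. Over all probe sets, the 12, 1 and 2 past the threshold at 24, 48 and 72 h were 1118, 944 and 1846 with array weights, 253, 312 and 194 without control replicate 3, 0, 0 and 1 without either other control, 3, 0 and 1 with the block, and 0, 0 and 1 with the muscle covariate. The causes of these shifts were not tested.

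Without 1 array, the mitotic median at 72 h ranged from -0.16 to 0.36 (highest without 72 h replicate 2), and mitotic minus S phase from -0.14 to 0.26 at 24 h and from -0.29 to -0.0042 at 48 h. The members with all 72 h arrays below the controls ranged from 4 to 9 (9 without control replicate 3). Leaving out an array can only keep or raise that count, so its lower end was fixed beforehand. The matching share of all probe sets was not counted, here or under quantile normalization, so these counts cannot be read as particular to the members.

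The differences of single genes listed next turned sign in at least 1 fit, and none of these was called. The share of all probe sets that turned sign was not counted. Under the muscle covariate 9, 15 and 21 of the 43 genes turned sign at 24, 48 and 72 h. Of the genes described array by array, the differences under it at 24 h were 0.14 (Mki67), 0.063 (Top2a), 0.18 (Ccne2), 0.15 (Gins2) and 0.080 (Tyms). Each was smaller than its SE, which ran from 0.32 (Tyms) to 0.68 (Top2a). The differences at 48 h were 0.30 (Mki67), 0.27 (Ccne1), 0.29 (Ccne2), 0.0076 (Rrm2) and 0.081 (Pcna). At 72 h under that covariate they were 0.21 (Aurkb), 0.025 (Ttk), 0.20 (Nusap1), 0.16 (Cenpa), 0.19 (Birc5), 0.53 (Top2a), 0.44 (Ccne2), 0.17 (Cdt1), 0.049 (Cdc45), 0.35 (Gins2), 0.058 (Rrm2) and 0.21 (Tyms). Other genes with printed differences had 0.048 (Plk1), 0.30 (Cenpe), 0.28 (Cenpf) and 0.31 (Prim1) at 24 h, 0.14 (Cdk1), -0.18 (Mcm6) and 0.076 (Gins1) at 48 h, and 0.12 (Cdk1), 0.19 (Kif23) and 0.25 (Gins1) at 72 h. With array weights they were 0.022 (Mki67) and 0.18 (Rrm2) at 48 h, and 0.025 (Kif11), 0.43 (Top2a), 0.29 (Cdt1), 0.079 (Mcm5) and 0.18 (Rrm2) at 72 h. Quantile normalization gave 0.17 (Mki67), 0.12 (Ccne1), 0.067 (Rrm2) and 0.071 (Pcna) at 48 h and 0.016 (Rrm2) at 72 h, and median centring gave -0.088 (Cdc6) at 72 h. Leaving out 1 array at a time gave ranges at 48 h of -0.17 to 0.23 (Ccne1), -0.32 to 0.33 (Rrm2), -0.24 to 0.73 (Top2a), -0.10 to 0.27 (Mcm4) and -0.19 to 0.17 (Mki67). At 72 h the ranges were -0.088 to 0.49 (Cdc20), -0.14 to 0.21 (Cdc6), -0.49 to 0.42 (Top2a), -0.15 to 0.18 (Rrm2), -0.36 to 0.09 (Kif11), -0.46 to 0.065 (Birc5), -0.38 to 0.055 (Ccne2), -0.88 to 0.37 (Cdt1), -0.60 to 0.12 (Mcm5) and -0.07 to 0.56 (Ube2c). Without 72 h replicate 2 the 72 h differences of Cenpa and Cdc45 kept their sign but were -0.39 and -0.34.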
